A study of Homo sapiens with 12 samples.

Results

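The genes described here are 9 transcriptional targets of p53, measured in H1299, a lung cancer cell line (non-small cell carcinoma) in wide use because it makes no p53 protein. They are CDKN1A, MDM2, GADD45A, GADD45B, PLK2, PLK3, TP53INP1, SESN1 and BTG2. They were taken as a list of p53 targets, but with earlier results of these data known. The shares of these genes that passed are therefore descriptions. A gene was followed when a probe named to it had a detection p below 0.05 on both arrays of at least 1 group. This held for 8 of the 9 genes and 8 of their 9 probes, among 12117 named genes and 19631 probes that met the same criterion. BTG2 had no probe named to it in the annotation used and was not analysed here. CDKN1A had a second probe, ILMN_1787212, that was detected on 0 of 12 arrays, and its results rest on ILMN_1784602.

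The cells were exposed for 6 h to phosphate-buffered saline (control), to GAPDH siRNA carried by PTD-DRBD, or to GAPDH siRNA given by lipofection, then washed and left to recover, with RNA taken 12 h or 24 h after treatment. The PTD-DRBD carrier joins a cell-penetrating peptide (the transduction domain) to a protein domain that binds double-stranded RNA. Lipofection carries the siRNA in cationic lipid. There were 6 groups, 3 treatments at 2 times, each with 2 Illumina arrays. Both treated arms received siRNA against the same gene, so an effect of the carrier and an effect of losing GAPDH cannot be told apart, and the labels leave unstated whether the arrays within a group represent separate cultures. Their spread may therefore be technical.

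In cells with an intact pathway, DNA damage stabilises p53, which switches on genes that stop the cell cycle, repair DNA, limit oxidative stress or prepare for cell death. CDKN1A encodes p21, an inhibitor of cyclin-dependent kinases, and MDM2 encodes the ubiquitin ligase that destroys p53 and so closes the loop. Many of these genes also answer to other stress-activated transcription factors and are expressed in cells without p53. Of the relatives of p53, TP63 had no named probe in the annotation used and was not analysed here, and the probe of TP73 did not meet the detection criterion.

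Between 17990 and 19097 probes were detected per array, the raw median lay between 61.3 and 73.1, and the 2 arrays of a group correlated at 0.9968 to 0.998. The siRNA target was lowered in all treated groups. The GAPDH probe ILMN_2038778 had a raw intensity of 35038 ± 1320 (SD, n = 2) in control cells at 12 h, 3379.1 ± 26.7 under PTD-DRBD, and 13730 ± 72.8 under lipofection. At 24 h the raw intensities were 35533 ± 2300, 4739.9 ± 197 and 18642 ± 2230 in the same order. After normalization this probe fell 10.2-fold with PTD-DRBD and 2.4-fold with lipofection at 12 h, and the other GAPDH probes fell further, ILMN_1343295 by 16.7-fold and 3.59-fold and ILMN_1802252 by 17.7-fold and 4.08-fold. Of 7 markers of a carcinoma line, KRT8, KRT18, KRT7, VIM and CDH1 were detected and KRT19 and EPCAM were not. Raw intensities of these 5 detected markers ran from 70.3 to 38900, so the lowest was also close to the array medians. No marker of fibroblasts or erythrocytes was detected, and the 2 leukocyte markers (PTPRC, LYZ) and 2 endothelial markers (PECAM1, KDR) that were stayed between 65.4 and 94.5 in raw intensity, close to the array medians. All values below are log2 intensities after background correction and quantile normalization. Differences are log2 differences with their standard error (SE) and the limma p adjusted over 19631 probes, and a gene is said to rise or fall where that p was below 0.05. An exact permutation test of 2 arrays against 2 cannot give a p below 0.333, so calls rest on the spread pooled over all groups.

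By the test, TP53INP1 went in opposite directions with the 2 carriers at 12 h, GADD45B was higher with lipofection at both times, and PLK2 was higher with lipofection at 24 h. With lipofection at 12 h, 2 of the 8 genes rose, GADD45B and TP53INP1, and 0 fell, where 8.94% of the 12117 genes passed (3.67% higher and 5.27% lower). With lipofection at 24 h, 3 rose, GADD45B, PLK2 and PLK3, and 0 fell, where 19.1% of genes passed (8.57% higher and 10.5% lower). With PTD-DRBD at 12 h TP53INP1 fell and no other member passed, where 4.92% of genes passed (1.89% higher and 3.03% lower). With PTD-DRBD at 24 h, CDKN1A and TP53INP1 fell and GADD45B rose, where 8.62% of genes passed (3.27% higher and 5.35% lower). The median difference over the 8 genes was 0.11 and 0.21 with lipofection at 12 h and 24 h, and 0.05 and -0.04 with PTD-DRBD. Over all genes these medians were 0, 0, 0.01 and -0.01. The comparisons of the 2 treatments at a time share their control arrays.

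**Figure D1:**
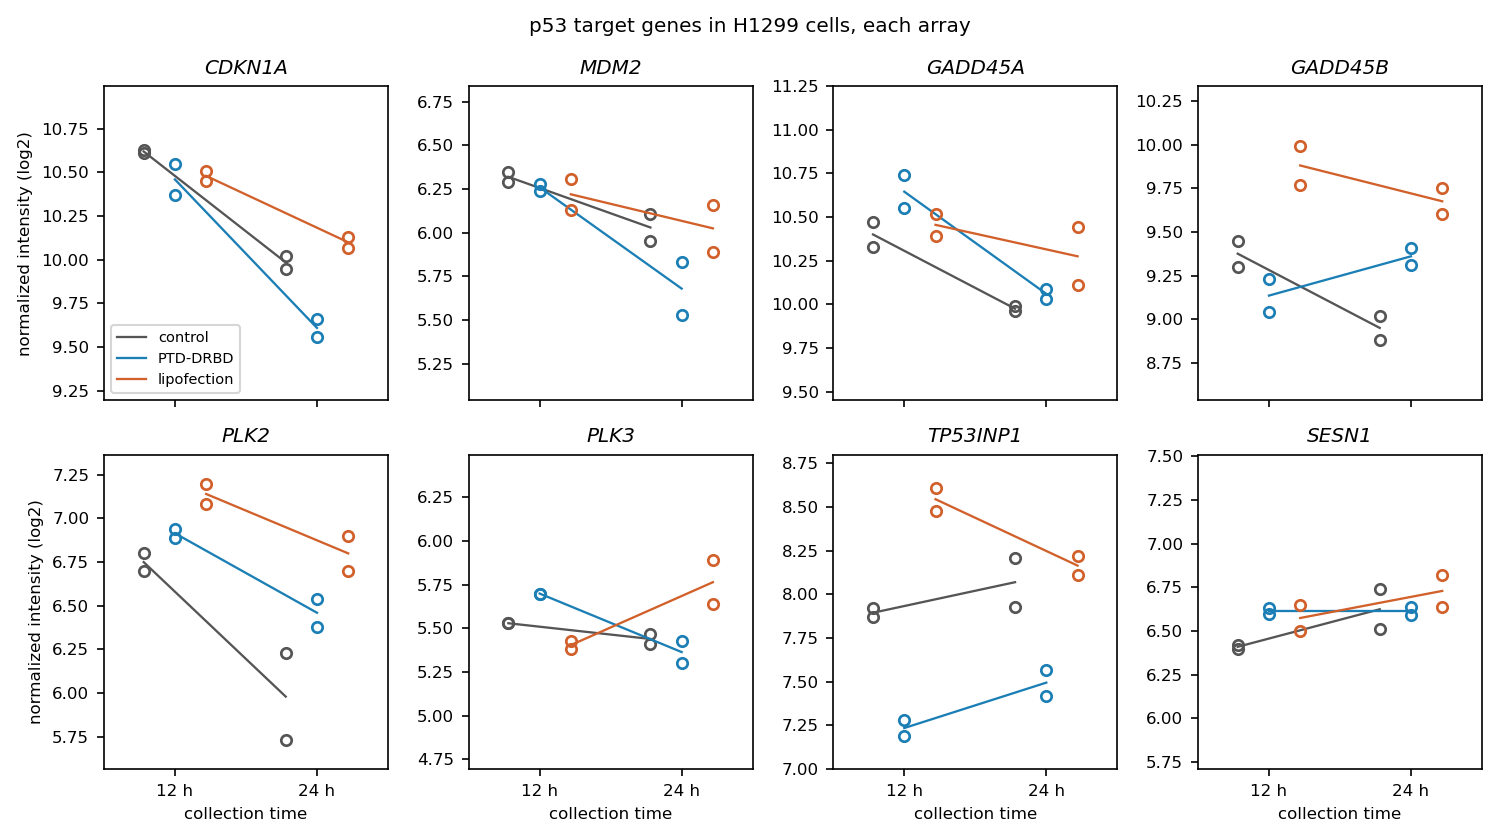
Normalized log2 intensity (vertical axes, which do not start at 0) of the 8 detected genes by collection time (horizontal axes, shifted by treatment), where each circle is 1 array and lines join the means of the 2 arrays of a treatment. TP53INP1 has lipofection at 8.48 and 8.61 and PTD-DRBD at 7.28 and 7.19 at 12 h, with control between them.

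The cell cycle inhibitor CDKN1A had an intensity far above background in every group. Its log2 intensity at 12 h was 10.61 and 10.63 in control cells, 10.37 and 10.55 under PTD-DRBD, and 10.51 and 10.45 under lipofection. At 24 h it was 9.95 and 10.02 in control cells, 9.66 and 9.56 under PTD-DRBD, and 10.13 and 10.07 under lipofection. The 6 arrays at 12 h were all above the 6 at 24 h, and the PTD-DRBD arrays at 24 h were the lowest of all. In control cells CDKN1A fell by 0.64 (SE 0.09, adjusted p 0.00203) from 12 h to 24 h, and this fall passed under every alternative setting and with each array left out. With PTD-DRBD at 24 h it fell by 0.38 against control (SE 0.09, adjusted p 0.0278), and without control array 1 or 2 of that time the adjusted p was 0.086 or 0.144. Lipofection at 24 h differed from control by 0.12 (95% confidence interval -0.07 to 0.31, adjusted p 0.386) and lay 0.49 above PTD-DRBD (adjusted p 0.0095). Without PTD-DRBD array 2 at 24 h, these PTD-DRBD results had adjusted p values of 0.191 against control and 0.0763 against lipofection, and without lipofection array 1 the latter was 0.0614.

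MDM2, the ubiquitin ligase of p53, passed in 0 of 9 comparisons in limma, with an unadjusted p below 0.05 in 3. Its log2 intensity at 12 h was 6.35 and 6.29 in control cells, 6.28 and 6.24 under PTD-DRBD, and 6.31 and 6.13 under lipofection. At 24 h it was 5.95 and 6.11, 5.83 and 5.53, and 6.16 and 5.89 in the same order. The lipofection arrays overlapped the control arrays at both times. The lipofection differences were -0.10 at 12 h (95% confidence interval -0.37 to 0.17, adjusted p 0.694) and 0.00 at 24 h (-0.27 to 0.27, adjusted p 0.991). The PTD-DRBD difference at 24 h was -0.35 (SE 0.12, adjusted p 0.0961), the furthest from 0 of its 4 comparisons with control. Raw intensities of MDM2 ran from 80.9 to 139, at the low end within the range of the leukocyte and endothelial markers.

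The 250 bases before the start of both genes are shown because these 2 are the best known p53 targets of the list. The windows are from RefSeq on GRCh38.p14, CDKN1A at chr6:36678464-36678713 and MDM2 at chr12:68808767-68809016, both on the plus strand, and the MDM2 window is that of the downstream start, known to hold the p53-responsive promoter. Capitals mark the GC box GGGCGG and, in MDM2, also the AP-1 element TGANTCA, searched on both strands.
CDKN1A: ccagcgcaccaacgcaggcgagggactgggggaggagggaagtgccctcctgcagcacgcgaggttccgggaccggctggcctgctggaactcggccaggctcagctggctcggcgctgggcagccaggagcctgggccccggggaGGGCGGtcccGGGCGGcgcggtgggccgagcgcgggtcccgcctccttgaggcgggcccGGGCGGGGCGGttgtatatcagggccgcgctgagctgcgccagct
MDM2: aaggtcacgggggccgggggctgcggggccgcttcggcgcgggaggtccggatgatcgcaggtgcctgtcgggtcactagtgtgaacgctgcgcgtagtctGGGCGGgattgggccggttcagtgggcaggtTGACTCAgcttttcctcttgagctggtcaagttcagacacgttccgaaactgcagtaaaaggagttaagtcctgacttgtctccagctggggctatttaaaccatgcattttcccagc
CDKN1A held 4 GC boxes, the last 2 of which share a base. MDM2 held 1 GC box and 1 AP-1 element. Among 35116 promoter windows of this length, 42.6% held a GC box and 6.57% an AP-1 element. Neither window held an exact match to the consensus p53 half-site. The search allowed no mismatch and covered only 250 bases of each gene, and the known p53 response elements in the MDM2 window depart from that consensus. The lack of an exact match therefore says nothing about p53 binding at either gene.

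GADD45A and GADD45B encode small proteins that bind stress kinases and take part in growth arrest, DNA repair and demethylation. GADD45B, also known as a target of NF-kappaB and of TGF-beta signalling, passed in 5 of 9 comparisons, as did TP53INP1. Its log2 intensity at 12 h was 9.45 and 9.30 in control cells, 9.23 and 9.04 under PTD-DRBD, and 9.99 and 9.77 under lipofection. At 24 h it was 9.02 and 8.88, 9.31 and 9.41, and 9.60 and 9.75 in the same order. Lipofection was the highest group at both times and did not overlap either other group. PTD-DRBD was below control at 12 h and above it at 24 h. With lipofection, GADD45B rose by 0.50 at 12 h (1.41-fold, SE 0.11, adjusted p 0.0197) and by 0.73 at 24 h (1.66-fold, SE 0.11, adjusted p 0.00195). The 24 h rise passed under every alternative and with each array left out (0.65 to 0.80), whereas the 12 h rise had adjusted p values of 0.0565 and 0.133 without control array 1 or 2, and 0.16 without lipofection array 1.

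With PTD-DRBD, GADD45B differed by -0.24 at 12 h (adjusted p 0.27) and rose by 0.41 at 24 h (adjusted p 0.0444). The latter call did not survive the omission of any 1 of the 4 arrays compared (adjusted p 0.0714 to 0.238). The change of this difference with time was 0.65 (SE 0.15, adjusted p 0.11). Lipofection lay above PTD-DRBD by 0.74 at 12 h (adjusted p 0.00224), where 10.8% of genes passed (4.73% higher and 6.11% lower) and 2 members did, GADD45B and TP53INP1, both higher. In control cells GADD45B fell by 0.43 from 12 h to 24 h (adjusted p 0.0453), a call lost with each of the 4 control arrays left out (adjusted p 0.0992 to 0.252).

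GADD45A passed in 0 of 9 comparisons in limma, with an unadjusted p below 0.05 in 2. Its log2 intensity at 12 h was 10.47 and 10.33 in control cells, 10.74 and 10.55 under PTD-DRBD, and 10.39 and 10.52 under lipofection, and at 24 h 9.99 and 9.96, 10.03 and 10.09, and 10.11 and 10.44. Control and lipofection overlapped at 12 h, and the second lipofection array at 24 h stood above the rest of that time. The lipofection difference was 0.06 at 12 h (95% confidence interval -0.20 to 0.31) and 0.29 at 24 h (0.04 to 0.55, adjusted p 0.107). The difference at 24 h passed in 4 of 13 alternative settings, the authors' values among them (0.13 to 0.46). The PTD-DRBD difference was 0.25 at 12 h (0.00 to 0.50, adjusted p 0.275) and 0.08 at 24 h (-0.17 to 0.34, adjusted p 0.683). Its largest difference was in control cells, -0.42 from 12 h to 24 h (SE 0.12, adjusted p 0.0636), which passed in 6 of 13 alternative settings, the authors' values among them (-0.49 to -0.35, adjusted p 0.0128 to 0.299). Whether the 2 GADD45 genes differed from each other in response was not tested.

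PLK2 and PLK3 are polo-like kinases induced by stress, of which PLK2 acts in centriole duplication and PLK3 in the stress response and cell cycle checkpoints. PLK2 had log2 intensities at 12 h of 6.70 and 6.80 in control cells, 6.94 and 6.89 under PTD-DRBD, and 7.08 and 7.20 under lipofection. At 24 h they were 5.73 and 6.23, 6.38 and 6.54, and 6.90 and 6.70. At both times the order was control, PTD-DRBD, lipofection, with no overlap between groups. Raw intensities at 24 h were low, 92 and 120 in control cells and 155 and 136 with lipofection. The first of these control arrays lay within the range of the leukocyte and endothelial markers. With lipofection at 24 h PLK2 rose by 0.82 (1.76-fold, SE 0.14, adjusted p 0.00405), and this passed under every alternative and with each array left out (0.54 to 1.06). The other differences from control were 0.39 with lipofection at 12 h (adjusted p 0.133), and 0.17 and 0.47 with PTD-DRBD at 12 h and 24 h (adjusted p 0.593 and 0.0635). The PTD-DRBD difference at 24 h passed in 6 of 13 alternative settings, the authors' values among them (0.23 to 0.72). In control cells PLK2 fell by 0.77 from 12 h to 24 h (adjusted p 0.0108). Among all genes 6.59% passed in that comparison (3.22% higher and 3.38% lower at 24 h), and of the members CDKN1A, GADD45B and PLK2 did, all 3 lower at 24 h. The 2 control arrays at 24 h stood apart, and without the first of them the fall was 0.52 (adjusted p 0.0717). Without the first or the second control array at 12 h the adjusted p was 0.0579 or 0.0782.

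PLK3 was detected on all 12 arrays but lay near background, with raw intensities from 74.9 to 98.6, within or just above the range of the leukocyte and endothelial markers. Its log2 intensity was 5.53 and 5.53 in control cells at 12 h, 5.70 and 5.70 under PTD-DRBD, and 5.38 and 5.43 under lipofection, and at 24 h 5.41 and 5.47, 5.43 and 5.30, and 5.64 and 5.89. Lipofection was the lowest group at 12 h and the highest at 24 h. PLK3 rose with lipofection at 24 h by 0.32 (SE 0.10, adjusted p 0.042) and lay 0.40 above PTD-DRBD at that time (adjusted p 0.0367). The first call was lost in 9 of 13 alternative settings (0.17 to 0.45, adjusted p 0.0178 to 0.297), among them the omission of either control array or of the second lipofection array at 24 h. The second was lost in 8 of 13 (0.21 to 0.53, adjusted p 0.0216 to 0.457), among them the omission of either PTD-DRBD array or of the second lipofection array. At 24 h 5.76% of genes passed between the carriers (3.38% higher and 2.38% lower with lipofection), and 3 members did, CDKN1A, PLK3 and TP53INP1, all higher with lipofection.

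The promoter windows of the 2 genes that were higher with lipofection at 24 h under every setting are shown for comparison, PLK2 at chr5:58460087-58460336 on the minus strand and GADD45B at chr19:2475877-2476126 on the plus strand (RefSeq, GRCh38.p14). Capitals mark the p53 half-site and the GC boxes (GGGCGG on either strand) in PLK2, and the TATA box TATAAA in GADD45B.
PLK2: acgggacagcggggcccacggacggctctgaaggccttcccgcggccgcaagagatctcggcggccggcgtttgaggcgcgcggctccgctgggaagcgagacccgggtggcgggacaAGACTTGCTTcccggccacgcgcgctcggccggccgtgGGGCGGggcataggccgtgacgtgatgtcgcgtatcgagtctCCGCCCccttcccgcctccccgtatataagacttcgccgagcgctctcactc
GADD45B: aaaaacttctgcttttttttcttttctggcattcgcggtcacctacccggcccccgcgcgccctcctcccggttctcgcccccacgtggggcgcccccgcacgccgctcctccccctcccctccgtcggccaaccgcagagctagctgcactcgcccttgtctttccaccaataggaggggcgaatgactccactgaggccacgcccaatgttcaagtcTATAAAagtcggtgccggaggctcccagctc
The half-site in PLK2 began 132 bases before the start, and 5.57% of all windows held such an exact match. Among the members, a SESN1 window also held one, 49 bases before its start, and SESN1 passed in 0 of 9 comparisons in limma. The TATA box in GADD45B began 31 bases before the start, and 10.7% of all windows held one. Neither window held the C/EBP-ATF element TGATGNAA, which was in 3.14% of windows and, among the members, in that of PLK3, 133 bases before its start. These matches are descriptions of the letters and not evidence of binding.

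TP53INP1 encodes a nuclear and autophagy-related protein that promotes p53-dependent cell death, and it was the member with the largest difference between the carriers. Its log2 intensity at 12 h was 7.87 and 7.92 in control cells, 7.28 and 7.19 under PTD-DRBD, and 8.48 and 8.61 under lipofection. At 24 h it was 7.93 and 8.21, 7.57 and 7.42, and 8.22 and 8.11. At 12 h the 3 treatments were fully separated with control in the middle, and at 24 h lipofection overlapped control while PTD-DRBD stayed below. With lipofection at 12 h TP53INP1 rose by 0.65 (1.57-fold, SE 0.11, adjusted p 0.00501), and with PTD-DRBD it fell by 0.66 (SE 0.11, adjusted p 0.00804). Without the second lipofection array at 12 h, the rise was 0.59 with an adjusted p of 0.0597.

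The gap between the carriers in TP53INP1 at 12 h was 1.31 (2.48-fold, 95% confidence interval 1.07 to 1.54, adjusted p 6.19e-05), and it passed under every alternative and with each array left out (1.11 to 1.38). The fall with PTD-DRBD at 12 h kept its size with each of the 4 arrays left out (-0.70 to -0.61), but the adjusted p then lay between 0.0501 and 0.0652. At 24 h the PTD-DRBD fall was 0.57 (SE 0.11, adjusted p 0.0127) and the lipofection difference 0.10 (-0.14 to 0.34, adjusted p 0.571). Without the second PTD-DRBD array at 24 h the fall was 0.50 with an adjusted p of 0.12, and without the second control array it was 0.43 with an adjusted p of 0.1. Lipofection lay 0.67 above PTD-DRBD at 24 h (adjusted p 0.00582), and 0.60 above it without the second PTD-DRBD array (adjusted p 0.0549).

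SESN1, a sestrin that restrains mTORC1 signalling and oxidative stress, passed in 0 of 9 comparisons in limma, with an unadjusted p below 0.05 in 0. Its log2 intensities over the 12 arrays ran from 6.40 in control cells at 12 h to 6.82 with lipofection at 24 h. The treated and control arrays overlapped at 24 h. The differences from control at 12 h were 0.17 with lipofection (95% confidence interval -0.06 to 0.39, adjusted p 0.381) and 0.20 with PTD-DRBD (-0.02 to 0.42, adjusted p 0.31).

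The change of an effect from 12 h to 24 h was tested as an interaction in limma, and 0 members passed for either treatment, where 4.07% of genes passed for lipofection (2.03% higher and 2.04% lower) and 0.149% for PTD-DRBD (0.0413% higher and 0.107% lower). At an unadjusted p below 0.05, 2 members passed for lipofection and 1 for PTD-DRBD. The changes nearest the threshold with lipofection were TP53INP1 at -0.55 (SE 0.15, adjusted p 0.0677) and PLK3 at 0.45 (SE 0.13, adjusted p 0.0832). Under alternative settings, the TP53INP1 change with lipofection passed in 5 of 17 (-0.70 to -0.41). The GADD45B change with PTD-DRBD passed in 3 of 17 (0.56 to 0.75). The authors' values were among the settings passed in both cases. Calls that passed at one time and not at the other are therefore not shown to differ between the times, and for these 2 genes that depends on the processing.

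**Figure D2:**
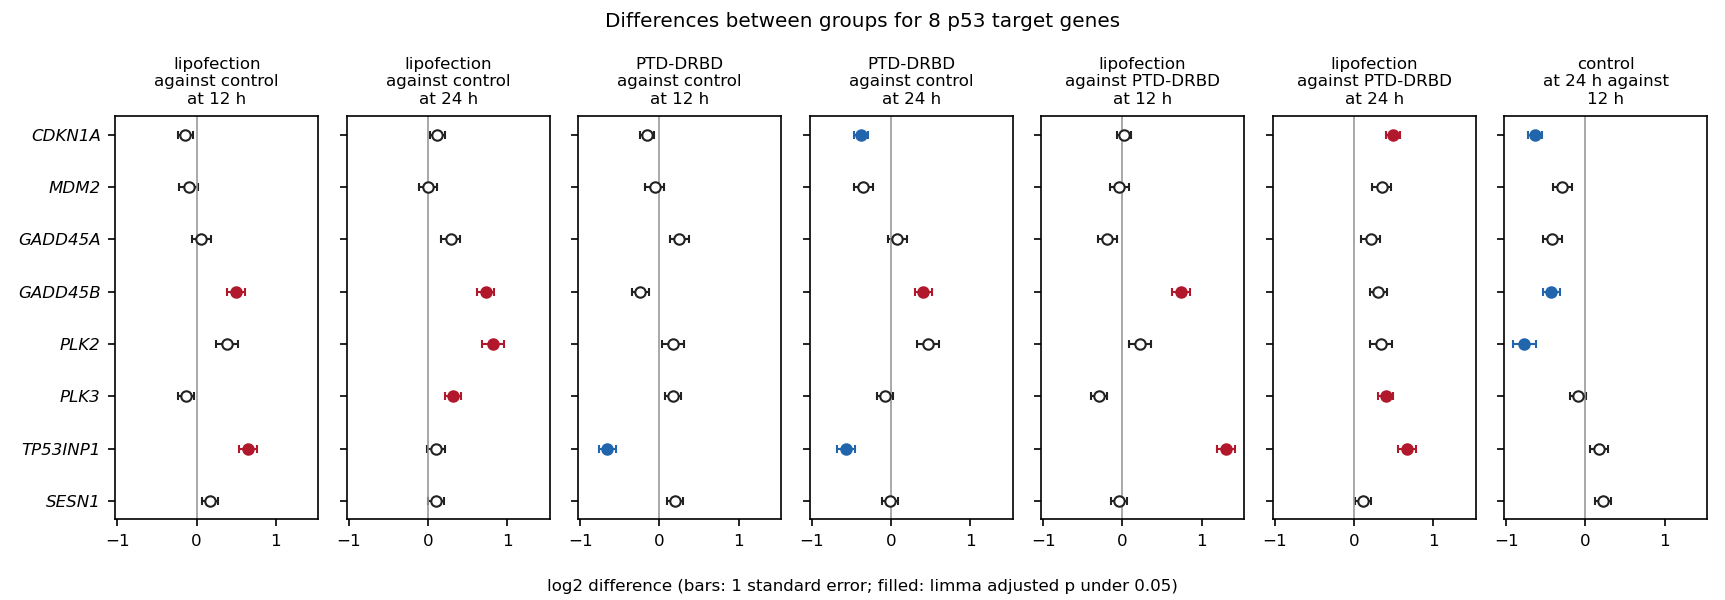
Log2 difference (horizontal axes) of the 8 detected genes in 7 comparisons between groups of 2 arrays, with bars of 1 SE and filled points where the limma adjusted p was below 0.05 (red higher, blue lower). TP53INP1 at 12 h lies at 0.65 for lipofection and -0.66 for PTD-DRBD against control, and PLK2 and GADD45B lie furthest right for lipofection at 24 h, at 0.82 and 0.73.

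Other p53 targets were read from a list of 45 genes, of which 36 were measured. This list and those that follow were chosen with earlier results known, so their shares beside those of all genes are descriptions. With lipofection at 12 h, 2 rose and 5 fell (19.4% of the list, where 8.94% of all genes passed), and at 24 h 2 rose and 1 fell (8.33%, against 19.1% of all genes). With PTD-DRBD the numbers were 2 and 2 at each time (11.1%, against 4.92% of all genes at 12 h and 8.62% at 24 h). The list's medians were -0.08, 0.02, -0.09 and -0.03 in these comparisons, near those of all genes. SESN2, a stress-induced sestrin, was below detection on both control arrays at 12 h and was at least 1.62-fold higher with lipofection (adjusted p 0.000997) and at least 1.33-fold higher with PTD-DRBD (adjusted p 0.00943). GDF15, a secreted stress cytokine, rose with lipofection by 0.42 at 12 h and 0.95 at 24 h, and differed by -0.16 and -0.03 with PTD-DRBD. BAX, which opens the mitochondrial outer membrane in apoptosis, rose by 0.55 with lipofection at 24 h (adjusted p 0.0434). With PTD-DRBD at that time it differed by 0.35 (adjusted p 0.204). CD82, a membrane tetraspanin, and DRAM1, a lysosomal regulator of autophagy, fell by 0.64 and 0.46 with lipofection at 12 h and differed by -0.30 and -0.15 with PTD-DRBD. FAS, the death receptor, was not detected in treated cells at 12 h and was at least 1.21-fold lower with lipofection and at least 1.18-fold lower with PTD-DRBD (adjusted p 0.00964 and 0.0356). TGFA, a growth factor of the EGF family, fell by 0.47 and 0.63 with PTD-DRBD at 12 h and 24 h. With lipofection it fell by 0.41 at 12 h (adjusted p 0.039) and differed by -0.32 at 24 h (adjusted p 0.0604).

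From a list of the p53 family and its regulators, 14 genes were measured and 0 passed at 12 h with either treatment in limma (3 with lipofection and 1 with PTD-DRBD at an unadjusted p below 0.05). With lipofection at 24 h, 2 rose and 3 fell (35.7%, against 19.1% of all genes). PPM1D, a phosphatase that switches the p53 pathway off, rose by 0.34 (adjusted p 0.0461) and CDKN2A by 0.38 (adjusted p 0.0318). MDM4, the partner of MDM2, fell by 0.50 (adjusted p 0.0325). Alternative settings are reported for the members only, so how far calls in the lists depend on the processing is not shown. MDM4 also fell with PTD-DRBD at 24 h, by 0.55, the only call of that list there. Close relatives of the members were measured for 13 of 16 genes. With lipofection 5 rose and 0 fell at 12 h (38.5%, against 8.94% of all genes), among them CDKN1B, which encodes the p21 relative p27, by 0.72, and TOB1, a relative of BTG2, by 0.65. These 5 include SESN2, also counted above among the other p53 targets, and PLK1, also counted below among cell cycle genes. The lists overlap, so their shares are not separate. At 24 h 3 rose and 2 fell (38.5%, against 19.1%), CDKN1B rising by 0.43, and the mitotic kinase PLK1 and the cell cycle inhibitor CDKN2B falling by 0.64 and 0.51. CDKN2B also fell with PTD-DRBD, by 0.94 and 0.76 at 12 h and 24 h.

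Cell cycle genes known to be repressed through p21 and the DREAM complex were measured for 24 of 25. With lipofection 5 rose and 0 fell at 12 h (20.8%, against 8.94% of all genes), and 2 rose and 12 fell at 24 h (58.3%, against 19.1% of all genes, 10.5% lower). The medians were 0.16 and -0.31, beside 0 over all genes. PLK1 rose by 0.44 at 12 h and fell by 0.64 at 24 h, KIF20A rose and fell by 0.52, and CCNB1, which encodes cyclin B1, fell by 0.51 at 24 h. With PTD-DRBD 1 rose at 12 h and 2 at 24 h, and 0 fell (4.17% and 8.33%, against 4.92% and 8.62% of all genes), CDC25A rising by 0.46 and 0.58. CDC25A also rose with lipofection at 24 h, by 0.66.

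**Figure D3:**
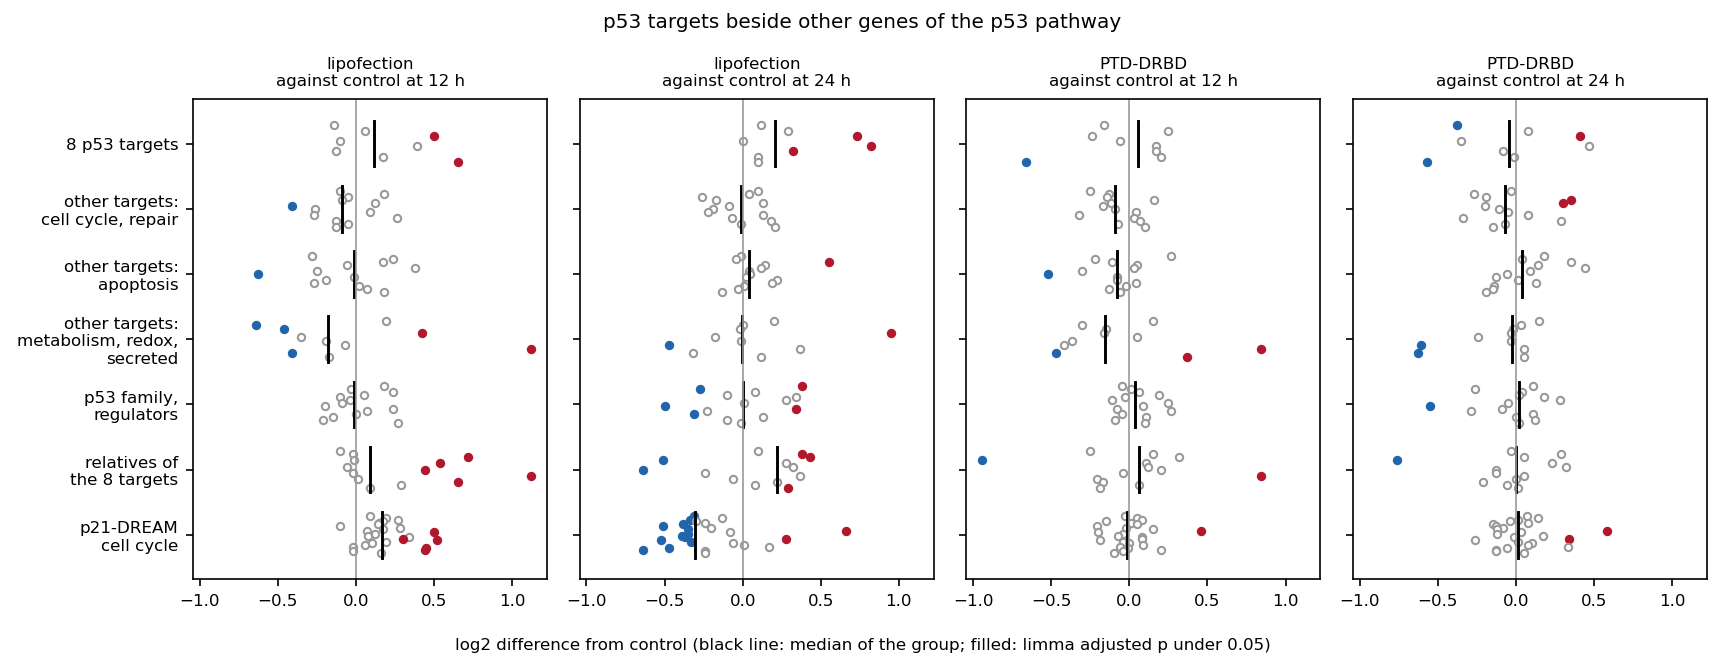
Log2 difference from control (horizontal axes) of the 8 detected genes and of 6 other lists, by treatment and time, where each point is 1 measured gene, filled points passed in limma (red higher, blue lower) and black lines are list medians. The cell cycle genes repressed through p21 have a median of -0.31 with lipofection at 24 h. Some genes appear in more than 1 list.

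The genes whose pattern over the 12 arrays was most like that of a member were named for the 3 members with the largest calls, by Pearson's r among 4179 probes that varied by at least 0.5. For TP53INP1 they were ULK1 at 0.952, MXD4 at 0.935 and TOB1 at 0.933. For GADD45B they were ZC3H12A at 0.908, SAP30L at 0.902 and RBBP6 at 0.902, and for PLK2 SALL3 at 0.926, NUP98 at 0.911 and EGLN1 at 0.91. The 12 arrays share 6 groups, so these values describe group patterns. The authors' deposited table, limited to 1.6-fold changes or more, listed 45 and 105 probes for PTD-DRBD and lipofection at 12 h and 55 and 179 at 24 h, and 0 of them were member probes.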

How the data were processed

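H1299 cells were exposed to each treatment for 6 h and recovered for 12 h or 24 h, and biotin-labelled cRNA was read on 12 arrays, per the labels' protocols. The deposited non-normalized table holds raw intensity for 48701 probes and, beside each intensity, the authors' deposited detection p-value. The submitters' processing notes name BeadStudio and give no version. The authors' normalized intensity table was used as an alternative, and its normalization is not stated in those sources (medians 65.6 to 65.8). The authors' deposited table of 1.6-fold changes holds a signed score and was used for membership alone.

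The neqc function (limma 3.58.1, R 4.3.3) corrected raw intensities for background through the detection p-values, added 16, applied quantile normalization and gave log2 values. The criterion for keeping a probe, a detection p below 0.05 on both arrays of some group, left 19631 (40.3%). Of all probes 23687 carried 1 gene symbol, 35 several and 24979 were not listed in the platform annotation; 5588 kept probes had no single named gene. Of the named probes 23651 matched the RefSeq gene table by gene ID, and 36 kept the annotation's symbol. Each of 12117 genes was represented by its brightest kept probe. All 12 arrays entered 1 model with 6 group means, using lmFit and eBayes (6 residual and 5.21 prior degrees of freedom), with Benjamini-Hochberg adjustment over 19631 probes within each of 9 comparisons at 0.05. The number of arrays limits the precision. On simulated data for lipofection against control at 12 h (19631 probes), 40% of 100 probes changed by 0.5 log2 and 92% of 100 changed by 1 log2 were recovered, with 8 false calls.

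A gene not detected on any array of a group is given a lower bound of its fold, the mean of the brighter group against, per array of the dimmer one, the higher of the dimmest detected signal and its own. The members, lists and naming rule were chosen with earlier results of these data known. All members were named, with GAPDH, and for the 3 members with the largest called change the 3 genes of most similar pattern. From each list the rule selected up to 4 genes with the largest change that passed in each comparison with control. The text names only some of these list genes. Promoter windows of 250 bases (RefSeq, GRCh38.p14) matched 7 of 9 members and were searched on both strands with Python 3.11.15. The alternatives tried were the authors' values, quantile normalization with no background step, cyclic loess, other detection filters, 1 probe per gene, only the arrays compared, an intensity trend with robust moderation, and each array left out. A fit that omitted array 2 of each treated group at 24 h was added after seeing the data.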

Additional observations from a re-analysis of the deposited data

Results flagged for a closer look

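None of the members met a criterion for a closer look, and with 2 arrays per group no single array could be tested as standing apart. In 10 genes picked by the naming rule from the related lists, the lipofection effect differed between the times by the interaction test in limma. The rule picked genes by their largest called differences from control on these same arrays. Picking in that way favours a difference between the times. Values are changes in log2 difference from 12 h to 24 h, with n = 2 arrays per group. Other genes of these lists passed too. Of the p21 and DREAM cell cycle list 41.7% passed (1 higher and 9 lower), against 4.07% of all genes. Of the factors known to act on members without p53, 20% passed (2 higher and 3 lower), and of the other p53 targets 2.78%.
Among cell cycle genes, the effect on PLK1 changed by -1.09 (adjusted p 0.0102), from 0.44 at 12 h to -0.64 at 24 h, and that on KIF20A by -1.04 (adjusted p 0.00471), from 0.52 to -0.52. The effect on NEK2, a centrosomal kinase, changed by -0.93 (adjusted p 0.0107), from 0.45 to -0.47. The effect on CDC25C, a phosphatase of mitotic entry, changed by -0.59 (adjusted p 0.0219), from 0.50 to -0.08, whereas that on CDC25A changed by 0.59 (adjusted p 0.0353), from 0.07 to 0.66.
Among stress-activated factors, the effect on FOS changed by -1.90 (adjusted p 0.0371), from 2.18 to 0.28, that on ATF3 by -0.76 (adjusted p 0.0162), from 1.51 to 0.75, and that on EGR1 by -0.65 (adjusted p 0.021), from 1.43 to 0.78. The effect on CEBPD changed by 0.89 (adjusted p 0.0105), from -0.11 to 0.77. The effect on the p53 target CD82 changed by 0.64 (adjusted p 0.0356), from -0.64 to 0.00.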

How the results depend on the processing

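Over the members' called differences, 128 of 153 recomputed values under other settings and 35 of 68 with an array left out still passed in the same direction, and 0 reversed. Uncalled differences came to pass in 23 of 495 and 3 of 284. The number of members with a changed lipofection effect between times went from 0 to 1 under quantile normalization without background correction, the authors' values, detection on all arrays, 1 probe per gene and the intensity trend, and for PTD-DRBD from 0 to 1 under the first, second and last of these. The count with PTD-DRBD at 24 h fell from 3 to 0, and that between the carriers at 24 h from 3 to 0, with only the arrays compared and, in the fit chosen after seeing the data, with array 2 of each treated group at 24 h left out. The cause was not tested. With each array left out in turn the counts ran from 1 to 1 (lipofection 12 h), 2 to 4 (lipofection 24 h), 0 to 0 (PTD-DRBD 12 h), 0 to 2 (PTD-DRBD 24 h), 2 to 2 and 0 to 2 (between the carriers at 12 h and 24 h), 1 to 2 (control over time), and 0 to 1 and 0 to 0 (changes of the lipofection and PTD-DRBD effects). Over all probes, PTD-DRBD at 24 h had 1450 calls, 2867 on the authors' values and 201 with only the arrays compared, and the change of the PTD-DRBD effect had 21, against 271 and 10. No paired analysis was possible because the labels number the samples through the series and give no replicate numbers within a group. With 2 arrays per group, a difference of 0.5 was recovered in 40% of simulated probes for lipofection at 12 h, so uncalled members are not shown to be unaffected.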

Other observations

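Of 25 transcription factors and signalling genes known to act on members without p53, 25 were measured. This list too was chosen with earlier results of these data known, so its shares beside those of all genes are descriptions. With lipofection 5 rose and 2 fell at 12 h, and 7 rose and 0 fell at 24 h (28% each time, against 8.94% and 19.1% of all genes). With PTD-DRBD 4 rose and 1 fell at 12 h, and 3 rose and 0 fell at 24 h (20% and 12%, against 4.92% and 8.62%). The list's medians were -0.02, 0.11, -0.05 and -0.07 in these comparisons. The genes that fell were NFKB1 and SMAD3 with lipofection at 12 h, and SMAD3 with PTD-DRBD at 12 h. DDIT3, a factor of the integrated stress response, rose by 1.6 and 1.45 with lipofection at 12 h and 24 h, and by 0.87 and 0.98 with PTD-DRBD. ATF3, a stress-induced factor that binds AP-1 and CREB-like sites, rose by 1.51 and 0.75 with lipofection and by 0.64 and 0.38 with PTD-DRBD. EGR1, an immediate early factor, rose by 1.43 and 0.78 with lipofection and by 1.01 and 0.56 with PTD-DRBD. Their part in the differences of the members was not tested.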
